A study of Mus musculus with 6 samples.

Results

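The genes described here are 37 genes of the endoplasmic reticulum (ER) that encode its stress sensors, its folding machinery, the channel through which proteins enter it and the machinery that removes proteins that fail to fold. They were chosen by gene symbol, with earlier results of these data known. All 37 were found among the 52550 gene rows and among the 14386 genes with enough counts to be tested. Expression was measured by counting messenger RNA at its 3′ ends (QuantSeq) in cardiomyocytes of mice on postnatal day 1. The cells had been sorted with magnetic beads, cultured for 48 hours with 5% horse serum and 10% fetal bovine serum and then kept for 24 hours without serum. There were 3 libraries from control cells and 3 from GR-cKO cells, in which the glucocorticoid receptor is deleted in cardiomyocytes, and the treatment is labelled ctrl in all 6. The labels call the libraries biological replicates, but whether each came from its own litter or culture is not stated in them, nor are the Cre driver, the strain, the sex, the alleles of the controls or the animals per library. The p-values measure the spread between these libraries, part of which may be technical.

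Proteins bound for the cell surface, the matrix or the secretory pathway enter the ER through the Sec61 channel, lose their signal peptide and are folded by chaperones and by enzymes that form disulfide bonds. Proteins that do not fold are passed back to the cytosol and destroyed, a route called ER-associated degradation. When unfolded proteins build up, the sensors IRE1 (encoded by Ern1), ATF6 and PERK start the unfolded protein response, in which spliced XBP1 and cleaved ATF6 act as transcription factors for chaperone and degradation genes. In heart muscle the same membrane system forms the sarcoplasmic reticulum, the calcium store, and calreticulin and GRP94 bind calcium as well as fold proteins. Counts at the 3′ end measure the amount of a messenger RNA, and neither the splicing of Xbp1 nor the cleavage of ATF6 can be read from them.

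XBP1 and ATF6 are known to act on a short promoter sequence, the ER stress element, made of CCAAT, a spacer of 9 bases and CCACG. RefSeq promoter windows of 300 bases, from 250 before to 50 after a transcription start (GRCm38.p6), were present for 30 of the 37 genes, and both strands were searched. The element is shown because it was found in the windows of 9 of these genes, while 0.119% of all 32851 windows held it. Chaperone and degradation genes are known targets of XBP1 and ATF6, so this difference was likely beforehand and is not a test. The windows below belong to the 4 of those genes with the smallest p in the comparison of the genotypes. Each is written 5′ to 3′ on the strand of its gene, with CCAAT and CCACG, or on the opposite strand their complements CGTGG and ATTGG, in capitals.
Calr (chr8:84847035-84847133, minus strand): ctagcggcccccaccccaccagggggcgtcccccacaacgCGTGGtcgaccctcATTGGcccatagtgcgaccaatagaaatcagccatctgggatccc
Hsp90b1 (chr10:86705493-86705694, minus strand): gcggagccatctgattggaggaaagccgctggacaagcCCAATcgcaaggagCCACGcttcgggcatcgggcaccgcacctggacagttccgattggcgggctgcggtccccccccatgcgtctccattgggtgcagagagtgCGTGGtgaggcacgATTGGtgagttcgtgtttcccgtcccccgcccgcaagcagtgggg
Pdia6 (chr12:17266451-17266549, plus strand): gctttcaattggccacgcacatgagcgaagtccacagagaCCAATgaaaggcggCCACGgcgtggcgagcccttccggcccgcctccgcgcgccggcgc
Hspa5 (chr2:34771985-34772083, plus strand): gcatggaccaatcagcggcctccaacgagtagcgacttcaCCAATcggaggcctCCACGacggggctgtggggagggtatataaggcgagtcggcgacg

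Hsp90b1 held 2 copies, 1 on each strand, and the other 8 genes held 1 copy each. Distances are counted from the RefSeq start of each window, which can differ from the GENCODE gene positions given below. The copy nearest to such a start among these 4 genes was that of Hspa5, 65 to 47 bases before it. The farthest was the outer copy of Hsp90b1, 212 to 194 bases before its start. In GENCODE Hspa5 begins at 34771970, so its element, at 34772025 to 34772043, lies inside that gene span. The elements of the other 5 genes, picked after their values were seen, are given as the 19 bases read in the direction of CCAAT, so that the spacers can be compared.
Derl3 (chr10:75893242-75893260, opposite strand to the gene): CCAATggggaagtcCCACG
Canx (chr11:50325800-50325818, strand of the gene): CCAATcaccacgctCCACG
Dnajc3 (chr14:118937827-118937845, strand of the gene): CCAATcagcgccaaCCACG
Creld2 (chr15:88819520-88819538, opposite strand to the gene): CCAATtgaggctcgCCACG
Syvn1 (chr19:6046532-6046550, strand of the gene): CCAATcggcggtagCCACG
The spacers differed from gene to gene, and 6 or 7 of their 9 bases were G or C in every copy.

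The libraries held 19371508 to 22583596 gene counts. The receptor gene Nr3c1 stood at 68.2, 73.9 and 72.4 CPM (gene counts scaled to library size with TMM factors) in control replicates 1 to 3 and at 46.2, 42.8 and 44.1 CPM in GR-cKO replicates 1 to 3, an order kept for all values below. A 3′ tag outside the deleted part of a gene need not change with a deletion, and the deleted exon is not named in the labels. Xist, which is expressed from the inactive X chromosome, was at 271 to 293 CPM in control and at 0 to 0.0996 CPM in GR-cKO, so the sex of the animals and the genotype cannot be told apart; none (0) of the 37 genes lies on chromosome X or Y. All 11 cardiomyocyte markers were detected. Of these 8 rose and 1 fell, beside 7.63% higher and 7.19% lower over all tested genes. Together the 11 markers reached 35100 to 36700 CPM in the control libraries and 44700 to 47100 CPM in those of GR-cKO.

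The ER genes split by role. Chaperones, most disulfide isomerases and most genes of the entry channel and signal peptidase were lower in GR-cKO, while the sensors and, with the exception of Derl3, the degradation genes were not called. Of the 7 channel and peptidase genes, only 1 to 3 were called lower with any 1 library left out, and 0 with spike-in scaling (below). Of the 37 genes 20 fell (54.1%) and none rose past an adjusted p of 0.05 (edgeR quasi-likelihood test, Benjamini-Hochberg adjustment over all 14386 genes), where 14.8% of all tested genes were called, 7.19% lower and 7.63% higher. The 3 GR-cKO libraries lay below the 3 control libraries in the same 20 genes, and in 14.7% of all tested genes; groups stood apart in either direction in 29.9%. At an unadjusted p below 0.05 there was 1 higher gene, Herpud1, and DESeq2 called 0 higher and 20 lower. The median log2 fold change was -0.26 over the 37 genes and -0.01 over all tested genes. Because the 37 genes were chosen with earlier results of these data known, these contrasts are a description and not a test.

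The share of all gene counts that fell on the 37 genes was 0.776% for control and 0.609% for GR-cKO. Summed levels separated most clearly for the 11 chaperone genes, at 3703, 3805 and 3789 CPM against 2600, 2529 and 2593 CPM. The isomerase genes summed to 1956 ± 55.1 CPM in control against 1645 ± 16.4 CPM in GR-cKO, and the genes of the channel and the signal peptidase to 1264 ± 26.5 and 1101 ± 22.7 CPM (SD, n = 3 each). The sums of the sensors, 205.8 ± 12.4 and 202.1 ± 8.09 CPM, and of the degradation genes, 571.8 ± 1.36 and 571 ± 19 CPM, differed by less than their spread. A sum follows its most abundant genes. Control means were 1330, 894 and 689 CPM for the chaperones Hspa5, Calr and Hsp90b1, 641 CPM for the isomerase P4hb and 159 CPM for Xbp1 among the sensors.

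**Figure D1:**
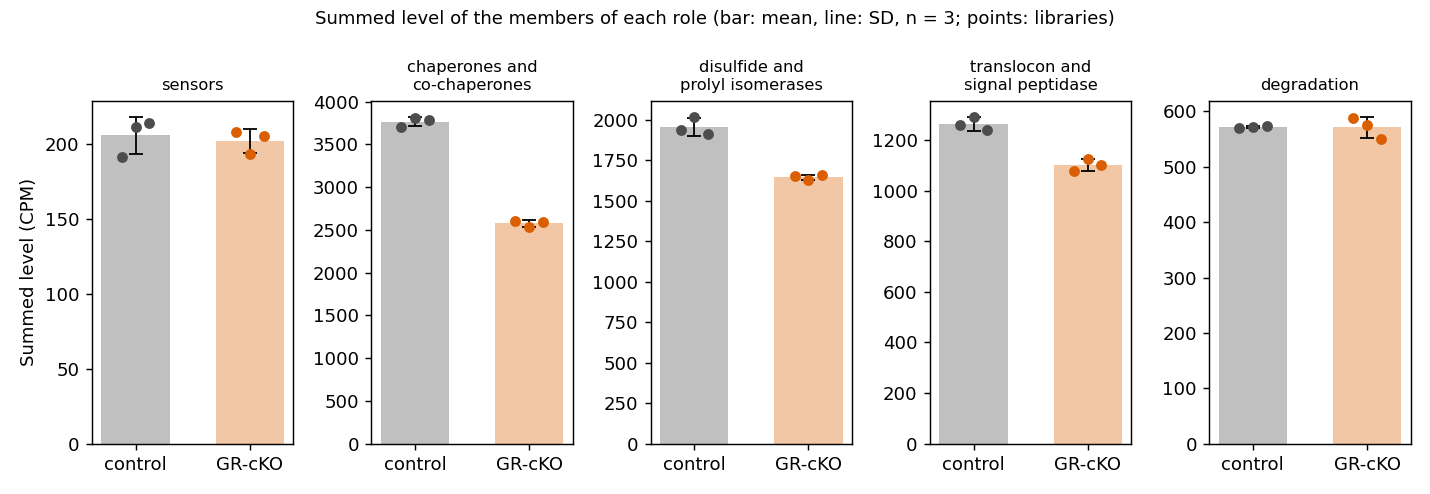
Summed level in CPM of the genes of each role, with bars for the mean, lines for the SD and points for the 3 libraries of each genotype; each panel has its own axis from 0. The chaperone sum is 3703 to 3805 CPM in control and 2529 to 2600 CPM in GR-cKO, while the sensor and degradation sums overlap.

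In these bulk samples fewer cells of a type and less RNA per cell cannot be told apart, and markers of other cells moved as well. Over all tested genes 7.63% rose and 7.19% fell. Of 12 fibroblast markers 6 rose and 1 fell, with summed levels of 4760 to 5010 CPM in control and 6070 to 6160 CPM in GR-cKO. Smooth muscle and pericyte markers rose in 6 of 9 (3740 to 3850 and 4450 to 4670 CPM) and endothelial markers in 6 of 10, with 1 lower (1260 to 1380 and 1360 to 1530 CPM). Leukocyte markers were scarce, at 13.7 to 18.9 and 37.5 to 57.5 CPM in sum, with C1qa, C1qb and Adgre1 below 1 CPM in every library and 4 of the 6 that could be tested higher. Of the markers of plasma cells, which are rich in ER, Irf4 and Ighm were at 0 and Jchain and Mzb1 below 1 CPM, while the other 2 markers were tested: Sdc1, which other cells also express, fell and Prdm1 rose. The summed level of the 6 markers was 42.9 to 47.5 CPM for control and 37.1 to 41.7 CPM for GR-cKO. The part of these cells in the ER results was not tested.

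The 3 genes grouped here as sensors, of which Xbp1 encodes a transcription factor downstream of IRE1 and not a sensor itself, were not called in either direction. This held for edgeR, for an unadjusted p below 0.05 (0 genes) and for DESeq2 (0 genes). Xbp1 (chromosome 11, 5520659 to 5525893, plus strand; GENCODE M21 on GRCm38, as for the other gene positions), the transcription factor spliced by IRE1, was at 145, 169 and 163 CPM in control and at 155, 146 and 159 CPM in GR-cKO. Its groups overlapped, and the 95% interval of its fold change ran from 0.865 to 1.07. Atf6, the membrane-bound factor released by cleavage, was at 37.5, 34.7 and 37.7 CPM and at 42.5, 37.6 and 40 CPM, with an interval of 0.948 to 1.26. Ern1, the kinase and nuclease that splices Xbp1, was the scarcest of the 3, at 7.92 to 13.4 CPM in control and 6.64 to 10.7 CPM in GR-cKO, and its interval of 0.649 to 1.19 leaves room for larger differences. Eif2ak3, which encodes PERK and was picked for mention after its values were seen, was at 10.6 ± 0.945 and 9.37 ± 1.2 CPM (n = 3 each) and did not pass either.

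Among 11 chaperones and co-chaperones 10 fell and none rose, with a median log2 fold change of -0.45. Hspa5 (chromosome 2, 34771970 to 34777547, plus strand), which encodes BiP, the Hsp70 of the ER lumen and the usual readout of the unfolded protein response, was the most abundant of the 37. It was at 1250, 1360 and 1380 CPM in control and at 1010, 954 and 961 CPM in GR-cKO. All GR-cKO libraries lay below all control libraries, a fold change of 0.734 (log2 fold change -0.45 ± 0.06, SE; edgeR adjusted p = 6.65e-06). Hsp90b1 (chromosome 10, 86690209 to 86705509, minus strand), which encodes GRP94, the Hsp90 of the ER, was at 667, 703 and 697 CPM and at 433, 423 and 473 CPM. The groups again stood apart, by 1.55-fold (log2 fold change -0.64 ± 0.06, edgeR adjusted p = 9.91e-08).

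Calr (chromosome 8, 84841850 to 84846934, minus strand) encodes calreticulin, a lectin that folds glycoproteins and buffers calcium. It fell from 941, 885 and 857 CPM to 520, 531 and 493 CPM, a 1.74-fold difference with the smallest p of the 37 genes (log2 fold change -0.80 ± 0.06, edgeR adjusted p = 1.55e-09). Canx, its membrane-bound relative calnexin, fell less, from 385, 369 and 370 CPM to 301, 294 and 303 CPM (-0.32 ± 0.06). The 95% intervals of the log2 fold changes of Calr, -0.93 to -0.67, and Canx, -0.45 to -0.19, did not overlap; the difference between these genes was not itself tested.

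The co-chaperones of BiP moved in the same direction with 1 exception. Hyou1, a nucleotide exchange factor for BiP, was at 44.4, 46.0 and 39.6 CPM in control and at 32.5, 33.0 and 30.9 CPM in GR-cKO. Dnajc3, a J-domain protein that stimulates BiP, was at 129, 136 and 132 CPM and at 93.1, 100 and 112 CPM, and Dnajb11, another, at 71.4, 78.2 and 77.7 CPM and at 62.2, 58.9 and 55.7 CPM. In each of these 3 genes the groups did not overlap, and the log2 fold changes lay between -0.43 and -0.36. Dnajb9 (ERdj4), a J-domain protein that also binds IRE1, did not pass: its libraries at 21.3, 23.6 and 30.6 CPM and at 26.7, 18.9 and 24.6 CPM overlapped, and its interval of 0.755 to 1.14 includes no change.

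Sdf2l1, Creld2 and Manf, which are less abundant than BiP, GRP94 and calreticulin, also fell. Sdf2l1, a partner of J-domain proteins in the ER, was at 12.3, 13 and 10.2 CPM in control and at 7.14, 4.88 and 5.67 CPM in GR-cKO, a fold change of 0.5 (log2 fold change -1.0, SE 0.20, edgeR adjusted p = 0.000739). Creld2, an ER protein induced by stress, was at 12.9, 16.9 and 15.2 CPM and at 7.59, 7.77 and 11.6 CPM. For Creld2 the highest GR-cKO library, replicate 3, came close to the lowest control library, and the log2 fold change was -0.74 ± 0.18 (adjusted p = 0.0061). Manf, a secreted stress-induced factor that also binds BiP, fell from 166, 176 and 181 CPM to 104, 103 and 122 CPM (log2 fold change -0.67 ± 0.08, edgeR adjusted p = 1.17e-06).

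**Figure D2:**
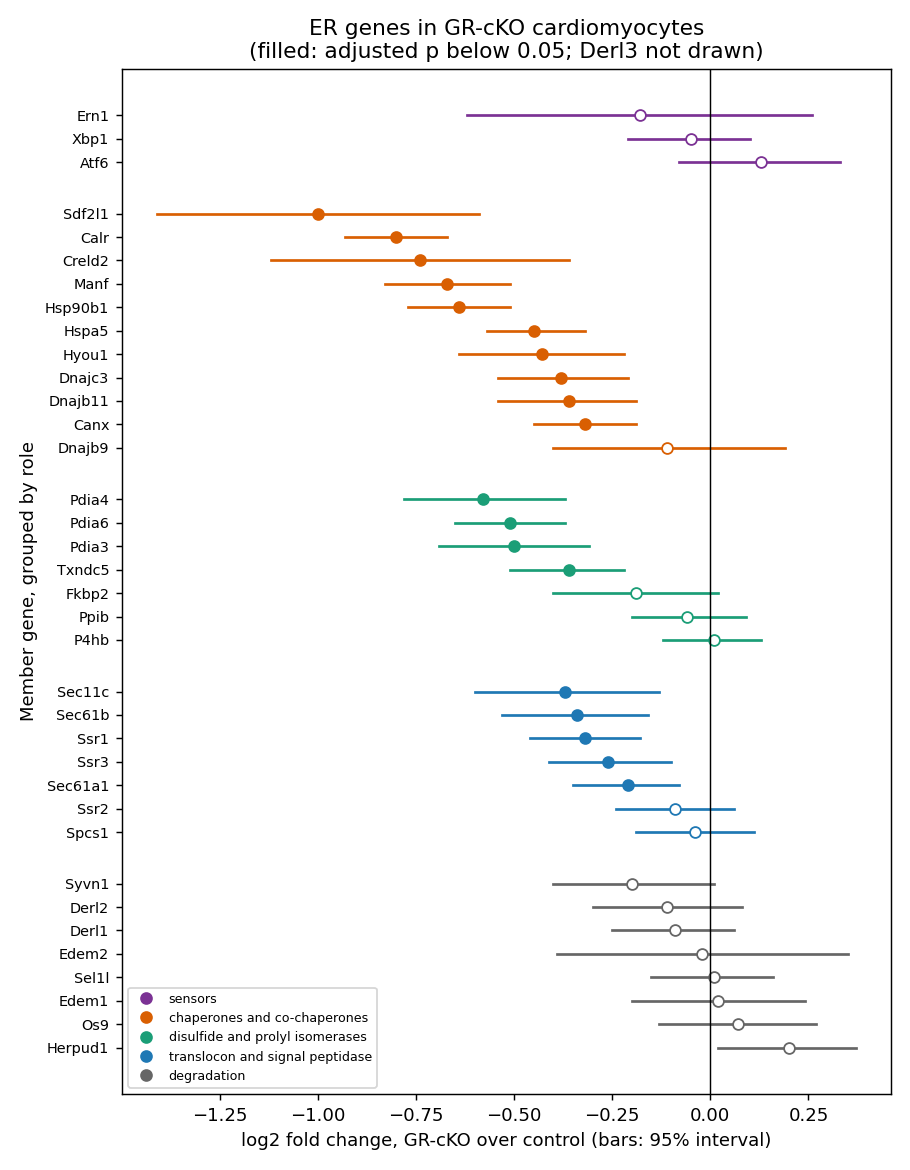
Log2 fold change (GR-cKO over control) of 36 of the 37 genes with 95% intervals, ordered within each role and coloured by role; filled points passed an adjusted p of 0.05. The called chaperones run from -1.0 to -0.32, while the degradation genes drawn lie between -0.20 and 0.20; Derl3, at -5.58, is outside the axis and not drawn.

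Of 7 disulfide and prolyl isomerases 4 fell and none rose, with a median log2 fold change of -0.36. Pdia6 (chromosome 12, 17266545 to 17284770, plus strand), a disulfide isomerase that also acts on IRE1 and PERK, fell from 397, 433 and 388 CPM to 276, 279 and 301 CPM (log2 fold change -0.51 ± 0.07, edgeR adjusted p = 6.03e-06). Pdia3 (ERp57), which works with calnexin and calreticulin, was at 317, 285 and 278 CPM in control and at 238, 214 and 168 CPM in GR-cKO. Pdia4 (ERp72), another disulfide isomerase, was at 124, 149 and 136 CPM and at 110, 77.9 and 87.3 CPM. Both had groups that stood apart, with log2 fold changes of -0.50 ± 0.09 and -0.58 ± 0.10, although their GR-cKO libraries spread more widely than those of Pdia6. Txndc5, a thioredoxin-domain isomerase, fell from 196, 206 and 222 CPM to 157, 159 and 169 CPM (-0.36 ± 0.07); its exons share 224 bases with Bmp6 on the other strand (mean 37.1 CPM), whose reads cannot be told apart there without a strand setting.

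P4hb (chromosome 11, 120560298 to 120573253, minus strand) was the most abundant of the 7 and did not pass. It encodes the founding protein disulfide isomerase, which also serves as the beta subunit of collagen prolyl 4-hydroxylase. Its libraries at 630, 678 and 615 CPM in control and at 631, 644 and 655 CPM in GR-cKO overlapped, and the interval of its fold change, 0.919 to 1.10, excludes a fall as large as that of Pdia3, Pdia4 or Pdia6. The prolyl isomerases Ppib (cyclophilin B), at 217 ± 3.03 and 209 ± 13.1 CPM, and Fkbp2, at 53.6 ± 4.39 and 47.1 ± 5.34 CPM (n = 3 each), did not pass; their intervals were 0.871 to 1.06 and 0.76 to 1.01.

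Of 7 genes of the entry channel and the signal peptidase 5 fell and none rose, with log2 fold changes between -0.37 and -0.21 and a median of -0.26 over the 7. Sec61a1 (chromosome 6, 88503579 to 88518905, minus strand), the pore of the channel, was at 322, 343 and 334 CPM in control and at 280, 285 and 297 CPM in GR-cKO (-0.21 ± 0.06, edgeR adjusted p = 0.0264). The channel subunit gene Sec61b was at 81.1, 77.9 and 90.3 CPM and at 59.1, 64.8 and 72.6 CPM (-0.34 ± 0.09). Within the translocon-associated complex that helps some proteins through the pore, Ssr1 fell from 193, 197 and 201 CPM to 159, 164 and 151 CPM (-0.32 ± 0.07). Ssr3, another subunit, was at 212, 214 and 198 CPM and at 163, 190 and 170 CPM (-0.26 ± 0.07).

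The remaining subunit of that complex among the 37 genes, Ssr2, did not pass; it was at 245, 242 and 214 CPM in control and at 225, 228 and 204 CPM in GR-cKO, with an interval of 0.844 to 1.04. The signal peptidase subunits also divided. Sec11c, a catalytic subunit, was at 33.1, 30 and 30.1 CPM and at 25.2, 25.4 and 21.6 CPM (-0.37 ± 0.11, edgeR adjusted p = 0.0301), and Spcs1, an accessory subunit, was at 178 ± 8.97 and 173 ± 8.56 CPM (n = 3 each) without passing. With any 1 of the 6 libraries left out, 1 to 3 of the 7 channel and peptidase genes passed. There was 1 in the fit without GR-cKO replicate 1, 2 without control replicate 2 and 3 in each of the other 4 fits. Lower calls over all genes also dropped in these smaller fits, from 1035 to between 726 and 889. The log2 fold changes of Sec61a1, Sec61b, Ssr1, Ssr3 and Sec11c stayed negative in every alternative.

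**Figure D3:**
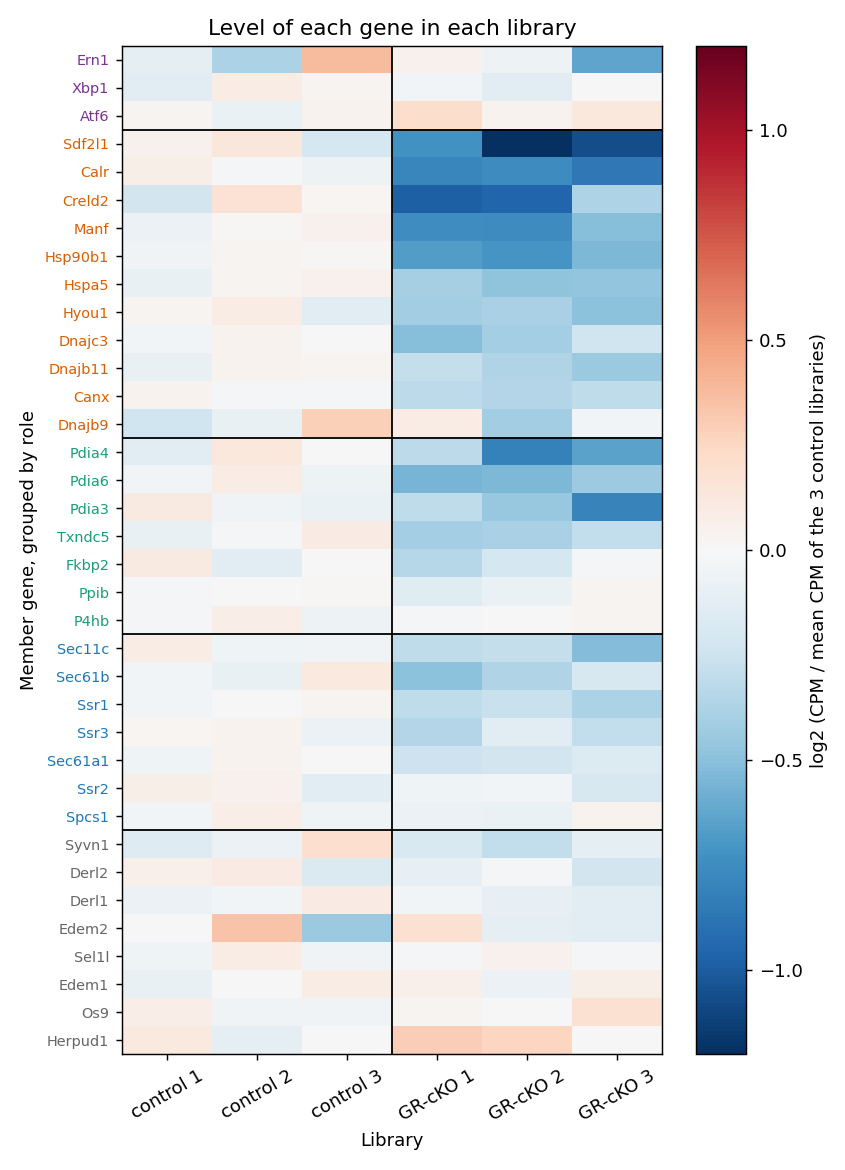
Heat map of 36 genes (rows, by role; Derl3, at or near 0 in GR-cKO, is left out) in the 6 libraries (columns), coloured by log2 of CPM over the mean CPM of the 3 control libraries. The 3 GR-cKO columns are blue for 10 of 11 chaperones, for Pdia3, Pdia4, Pdia6 and Txndc5 and, more faintly, for 5 channel and peptidase genes, and near white for most sensors and degradation genes.

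Degradation genes were not called, with 1 exception among 9 (11.1% called, beside 14.8% of all tested genes called and 7.19% called lower). Herpud1, a stress-induced membrane protein that organises the degradation complex, was at 133, 113 and 122 CPM in control and at 151, 147 and 123 CPM in GR-cKO, with groups that overlapped at replicate 3 of GR-cKO. Its log2 fold change was 0.20 ± 0.08 (edgeR adjusted p = 0.128), and it passed as higher only without GR-cKO replicate 3 (0.29 ± 0.08, adjusted p = 0.0211). Derl1, a membrane protein of the export channel, was at 112, 115 and 126 CPM and at 115, 110 and 107 CPM. The core of the ubiquitin ligase, Sel1l and Syvn1 (Hrd1), was at 112 ± 6.22 and 113 ± 2.4 CPM and at 56.3 ± 7.47 and 49.2 ± 3.16 CPM (n = 3 each). The genes Os9, Edem1 and Edem2, whose proteins act in the selection of misfolded glycoproteins, and the channel protein gene Derl2 had log2 fold changes between -0.11 and 0.07. For the 8 degradation genes other than Derl3 the 95% intervals of the log2 fold change all lay between -0.40 and 0.37.

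Derl3 (ENSMUSG00000009092; chromosome 10, 75893413 to 75895941, plus strand), a derlin known as a target of the unfolded protein response, was the exception. It was scarce, with 36, 43 and 36 counts in the control libraries (1.73, 2.01 and 1.78 CPM), and it had 0, 0 and 2 counts in the GR-cKO libraries. The ratio of summed levels, control over GR-cKO, was 56.7 with a 95% exact interval of 15.3 to 474.0 that covers counting error only, from 115 against 2 counts. The fitted log2 fold change of -5.58 ± 0.87 (edgeR adjusted p = 5.29e-05) depends on how a count of 0 is treated. Of 6 other tested genes within 100 kb, Mif passed as higher (log2 fold change 1.05 ± 0.07) and none passed as lower. Gstt1 was at 4.32, 4.78 and 5.63 CPM in control and at 3.71, 3.19 and 2.42 CPM in GR-cKO without passing (-0.66 ± 0.28, edgeR adjusted p = 0.128). The nearest relatives Derl1 and Derl2 had log2 fold changes of -0.09 ± 0.08 and -0.11 ± 0.09.

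The promoter element shown above was found mostly in genes that fell. It was present in 8 of the 16 genes with a window that fell (Hspa5, Hsp90b1, Calr, Canx, Creld2, Dnajc3, Pdia6 and Derl3) and in 1 of 14 that did not, Syvn1, at 50.6, 53.6 and 64.8 CPM in control and at 49.6, 45.9 and 52.2 CPM in GR-cKO. Across all tested genes with a window, 17 of 10423 held the element, of which 9 fell (52.9%) and none rose. Over all tested genes 7.19% fell and 7.63% rose. The median log2 fold change was -0.38 for the 17 against -0.01 for all 10423. Of the 8 with the element that are not among the 37 genes, 1 fell and none rose, so the count of 9 rests on the 37 genes themselves. Those were chosen with earlier results of these data known, so the split is a description and not a test. A second form of the element, ATTGG, any base and CCACG, was found in Dnajb11 and Herpud1 (0.0365% of all windows), and the unfolded protein response element TGACGTGG in Txndc5 (0.676% of all windows). Of 9 tested genes with the second form 1 fell (11.1%) and 0 rose, with a median log2 fold change of -0.08. Of 108 tested genes with TGACGTGG 15 fell (13.9%) and 10 rose (9.26%), with a median of -0.06. No window of the 37 genes held more than 1 kind of element, so none overlapped. Windows were not present for Atf6, Hyou1, Manf, Sec61a1, Ssr2, Sec11c and Derl1. The matches of Dnajb11 and Txndc5 lie inside the GENCODE spans of these genes. A match describes the letters of the window and not binding.

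Other genes of the secretory pathway, 127 in all and 126 of them tested, changed in both directions, with 8 higher and 20 lower (6.35% and 15.9%, beside 7.63% and 7.19% of all tested genes) and a median log2 fold change of -0.11. Of 12 other sensors and transducers 4 rose and 1 fell. Those that rose act in the branch downstream of PERK or in related stress pathways: Ppp1r15a (GADD34), which restores translation, at 34.4 ± 0.902 and 55.0 ± 1.58 CPM; Ddit3 (CHOP), at 36.7 ± 2.31 and 54.8 ± 10.0 CPM; Atf4, with a log2 fold change of 0.30 ± 0.08; and Creb3l1, a factor cleaved like ATF6, with 0.42 ± 0.10. Creb3l2, a close relative of Creb3l1, fell by 0.30 on the log2 scale; it and Atf4 were picked for mention after their values were seen. The call of Creb3l2 was lost with spike-in scaling and without control replicate 1 or GR-cKO replicate 1, and that of Atf4 without control replicate 2 or 3 or GR-cKO replicate 1 or 2.

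Among 23 genes of oxidative folding and glycoprotein quality control 2 rose and 1 fell, 13% called beside 14.8% of all tested genes. Ero1l, the oxidase that recharges protein disulfide isomerase and a known hypoxia-induced gene, was at 19.9, 20.9 and 20.6 CPM in control and at 72.3, 68.1 and 60.6 CPM in GR-cKO, a 3.28-fold rise (log2 fold change 1.71 ± 0.10, edgeR adjusted p = 1.43e-11). Qsox1, a sulfhydryl oxidase of the later secretory pathway, rose 1.53-fold, from 581 ± 22.7 to 888 ± 64 CPM (n = 3 each), and the membrane-bound isomerase Tmx1 fell by 0.24 on the log2 scale. Ero1lb, a paralog of Ero1l picked for mention after its values were seen, was scarce and did not pass, at 1.33 ± 0.92 and 1.02 ± 0.649 CPM (n = 3 each). The call of Tmx1 was lost with spike-in scaling and without control replicate 2 or 3 or GR-cKO replicate 2 or 3, and those of Ero1l and Qsox1 held in all 13 alternatives.

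Among 28 tested genes of the rest of the entry machinery and of N-glycan transfer 5 fell and 1 rose (21.4% called, beside 14.8% of all tested genes). Tram1, which assists entry, fell from 120 ± 5.15 to 89.1 ± 7.43 CPM, Rpn1, a subunit of the oligosaccharyltransferase, from 266 ± 13.3 to 208 ± 15.5 CPM, and the signal peptidase subunit Spcs2 from 152 ± 9.79 to 121 ± 10.6 CPM, while its partner Spcs3, picked for mention after its values were seen, rose from 97.2 ± 9.7 to 127 ± 21.5 CPM (n = 3 each). The call of Spcs3 was lost without control replicate 1 or GR-cKO replicate 3, and that of Spcs2 without GR-cKO replicate 2. With spike-in scaling the calls of Spcs2 and Rpn1 were lost, while Tram1 passed in all 13 alternatives. Of 30 genes of export vesicles and retrieval 9 fell and none rose (30% called). Kdelr2, a receptor that returns chaperones such as BiP to the ER, was at 263, 273 and 268 CPM and at 191, 198 and 211 CPM (log2 fold change -0.42 ± 0.07, edgeR adjusted p = 6.73e-05). Its paralogs Kdelr1, at 446 and 415 CPM on average, and Kdelr3, at 38.5 and 36.9 CPM, did not pass (-0.10 ± 0.06 and -0.06 ± 0.12). Both were picked for mention after their values were seen. The coat subunit Sec24d and the cargo receptor Surf4 fell by 0.36 and 0.25 on the log2 scale. The count of lower export genes was 2 without control replicate 2 or GR-cKO replicate 1, 3 without GR-cKO replicate 2 and 4 without control replicate 1. Kdelr2 passed in all 13 alternatives, Sec24d was lost without control replicate 1 or GR-cKO replicate 1, and Surf4 without replicate 2 of either group. Sec24d and Surf4 were also lost with spike-in scaling. In the rest of the entry machinery the count of lower genes was 2 of 28 without GR-cKO replicate 2. Of 26 other degradation genes 3 fell and none rose (11.5% called, beside 14.8% of all tested genes called and 7.19% called lower). These were Selenos (-0.31 ± 0.07), Ube2j1 (-0.23 ± 0.08) and, just past the threshold, Vcp (-0.19 ± 0.06). Selenos passed whichever library was left out, Ube2j1 in none of those 6 fits, and Vcp was lost without replicate 2 or 3 of either group and with RLE factors. All 3 were lost with spike-in scaling. Ube2j1 was also lost without a low-count filter, and Vcp with a filter of 1 CPM in 3 libraries and without chromosomes X and Y. Of 9 receptors for autophagy of the ER (22.2% called), Tex264 rose (0.42 ± 0.12) and Retreg1 fell (-0.27 ± 0.08). The call of Tex264 was lost without control replicate 2 or 3 or GR-cKO replicate 1. That of Retreg1 was lost with spike-in scaling and without control replicate 2 or any 1 GR-cKO library.

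**Figure D4:**
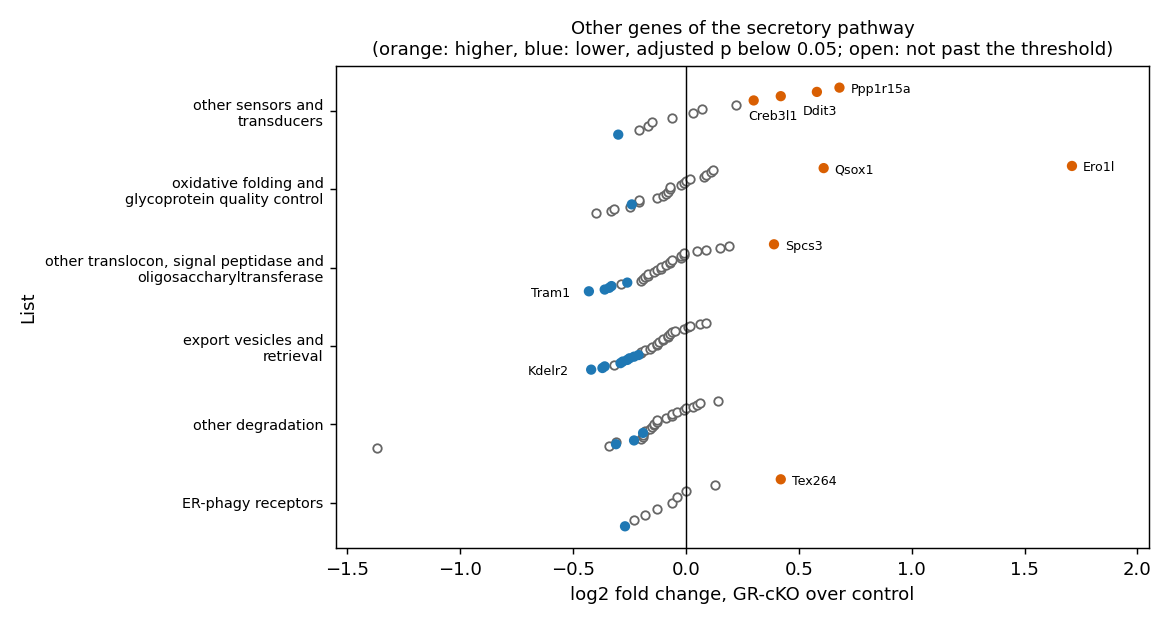
Log2 fold change (GR-cKO over control) of the 126 tested genes of 6 other lists of the secretory pathway, 1 point per gene and list, with orange for higher, blue for lower and open points for genes not past an adjusted p of 0.05. Ero1l, at 1.71, stands farthest to the right, and the 9 called genes of export and retrieval all lie left of 0.

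The size of these changes depends on what is held constant. Scaling the libraries by the ERCC spike-in RNAs instead of TMM moved the median log2 fold change of all genes by 0.093, from -0.007 to 0.087, and that of the 37 genes from -0.26 to -0.16. Calls over all genes then split into 1355 higher and 522 lower, against 1097 and 1035 with TMM. With it 10 of the 20 lower genes still passed: Hspa5, Hsp90b1, Sdf2l1, Calr, Manf, Creld2, Pdia3, Pdia4, Pdia6 and Derl3. The same 10 passed under all 13 alternatives tried. With spike-in scaling Hyou1, Dnajb11, Dnajc3, Canx, Txndc5 and all 5 channel and peptidase genes kept a negative fold change without passing, at -0.34 to -0.12, and of the other pathway genes 8 rose and 2 fell.

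**Figure D5:**
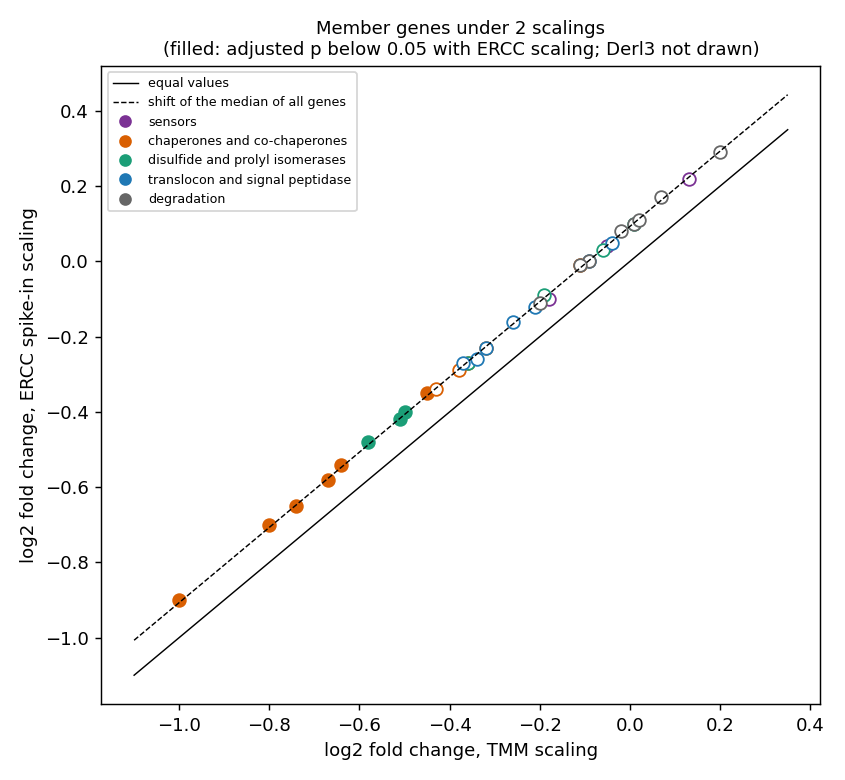
Log2 fold change of 36 of the 37 genes with TMM scaling (horizontal) and with ERCC spike-in scaling (vertical), coloured by role; filled points passed with spike-in scaling, and Derl3 is not drawn. The points follow the dashed line, which is shifted by 0.093 from equality.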

How the data were processed

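Each library has its own deposited table of raw counts, whole numbers per Ensembl gene. The submitters' processing notes list the build GRCm38 and, among tools, featureCounts 1.6.2, STAR 2.5.4a, DESeq2 1.18.1, MultiQC 1.5, FastQC 0.11.7, cutadapt 1.16 and bcl2fastq; their roles, the strand setting and how multiply mapped reads were treated were not given in the sources used here, so genes with processed pseudogenes or overlapping genes are uncertain. Exons of 825 bases of Ppib, 549 of Sec61a1 and 415 of Hsp90b1 lie opposite another gene; those partners (Snx22, Gm44170 and 1810014B01Rik) were at most at 3.47 CPM in any library. Partners with higher mean levels overlap Txndc5 (Bmp6, 37.1 CPM), Spcs1 (252 bases, Glt8d1, 34.4 CPM), Syvn1 (91, Mrpl49, 25.9 CPM), Manf (146, Dcaf1, 22.6 CPM) and Derl2 (231, Mis12, 16.7 CPM); Manf also shares 14 bases with Rbm15b (37.3 CPM).

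Groups came from sample titles. Of 52649 rows, 92 ERCC and 7 SIRV spike-ins (1.982% to 2.362% of counts) stayed out of library sizes and tests. Symbols and positions are from GENCODE M21. A count of 0 allows up to 0.133 to 0.155 CPM (3 counts, counting error only). Same-group libraries differed by more than sampling noise (median chi-square 2.49 to 3.71 per gene), so all 6 were kept.

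The test was edgeR 4.0.16 (R 4.3.3; quasi-likelihood, TMM factors 0.98 to 1.024, default low-count filter, Benjamini-Hochberg over all genes), checked on simulated data. Each standard error is the log2 fold change over the root of F. Levels are CPM; with 3′ counts they do not depend on gene length. Alternatives were RLE factors, ERCC scaling, DESeq2 1.42.0, 2 other filters, chromosomes X and Y left out, a replicate block and leaving out each library. The 37 genes and all lists were chosen with earlier results of these data known. By rule all 37 genes are named, with values per library for those called and the 2 most abundant of each role (Dnajb9 and Syvn1 were added after their values were seen), as are up to 3 genes of each other list, smallest p first; exceptions there are marked.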

Additional observations from a re-analysis of the deposited data

How the results depend on the processing

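Calls of the 37 genes did not change with RLE factors, DESeq2, either other filter or without chromosomes X and Y, where 20 were lower and none higher. ERCC scaling left 522 genes lower over all (1035 with TMM), 10 lower among the 37 and 2 lower among the other pathway genes (20 with TMM); the cause was not tested. Without 1 library each, 842 to 993 genes rose and 726 to 889 fell over all; 0 to 1 rose and 16 to 18 fell among the 37; 6 to 7 rose and 7 to 16 fell among the other pathway genes, fewest without GR-cKO replicate 2 (7), control replicate 2 (9), GR-cKO replicate 1 (10) and control replicate 1 (13). Deviations from the group mean had correlations of 0, 0.037 and 0.02 between same-numbered libraries. Whether the replicate numbers pair the libraries is not stated in the labels. These values, taken against means of 3 libraries, cannot decide it. A fit with the replicate block gave 1201 higher and 1152 lower over all, 0 and 20 among the 37, and 8 and 22 among the other pathway genes.

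Among the 37 genes, signs turned only in genes that did not pass. With ERCC scaling these were Xbp1 (0.04), Ppib (0.03), Ssr2 (0.00), Spcs1 (0.05) and Edem2 (0.08), and with the replicate block Edem2 (0.00). With 1 library left out the log2 fold change ran from -0.34 to 0.05 for Ern1, -0.21 to 0.06 for Dnajb9, -0.02 to 0.05 for P4hb, -0.07 to 0.00 for Spcs1, -0.01 to 0.06 for Sel1l, -0.02 to 0.07 for Edem1 and -0.20 to 0.19 for Edem2. Ern1 had 129 to 272 counts per library and Edem2 208 to 380. The pathway genes named in the text, except Kdelr1 and Kdelr3, were put through the same alternatives one by one after seeing the data. Of these Ero1lb, not called, turned sign, with -0.87 to 0.07 when 1 library was left out.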
